A study of Mus musculus with 28 samples.

Results

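Potassium channel genes were described here across the hippocampus of mice carrying an Alzheimer's disease transgene set, alone and together with a mutation in the cell death pathway of RIPK1 and ZBP1. A gene was included when its symbol begins with Kcn, it is annotated as protein-coding, and it averaged at least 1 CPM (counts-per-million, the count scaled to the library total) over the 24 hippocampal libraries. This gave 77 genes of the 55487 gene IDs in the count tables. Of the 94 protein-coding Kcn symbols, 17 fell below the threshold. Just inside it were Kcne4 with a mean of 1.19 CPM, Kcnmb1 with 1.62 CPM and Kcnj14 with 1.74 CPM. Just outside were Kcnq1 with 0.828 CPM, Kcnk5 with 0.816 CPM and Kcnh8 with 0.775 CPM, and Kcnn4, a calcium-activated channel of microglia, stood at 0.510 CPM. All 77 genes had at least 1 count in every hippocampal library, and all passed the filter on low counts in each fit.

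The RNA was polyadenylated hippocampal RNA from mice 9 months of age, taken after behaviour tests, in 2 cohorts that each had their own wild-type animals. The Ripk1 cohort held Ripk1D138N/D138N 5xFAD, 5xFAD, Ripk1D138N/D138N and WT, with 3 libraries each. The D138N allele makes the RIPK1 kinase inactive, and it is written D138N below. The Zbp1 cohort held Zbp1-/- 5xFAD, 5xFAD, Zbp1-/- and WT, with 3 libraries each, where Zbp1-/- is a knockout of the nucleic acid sensor ZBP1. In 5xFAD mice the Thy1 promoter drives mutant human transgenes of familial Alzheimer's disease in neurons, so the model shows amyloid deposition and not tangles. There were also 4 RNA immunoprecipitation (RIP) libraries, an antibody pulldown of ZBP1 and an input from 5xFAD and from WT. Whether each library is a different mouse is not stated, and p-values therefore reflect variation among the libraries, which may be technical.

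Total counts ran from 16624325 to 44801371 per library in the Ripk1 cohort and from 8362348 to 34640479 in the Zbp1 cohort. Thy1 lay between 1460 and 2740 CPM in the 12 libraries with 5xFAD in their label and between 513 and 662 CPM in the 12 without. Zbp1 had 9 to 11 counts in Zbp1-/- 5xFAD libraries, against 52 to 125 in 5xFAD libraries of that cohort. In Zbp1-/- and WT libraries it had at most 11 and 12 counts, so the knockout could not be checked there, and a count of Ripk1 does not check a point mutation. In the Ripk1 cohort, 5xFAD library 1 held 521 CPM of Fos, an immediate early gene, against 3.78 to 25.3 CPM in the other 23 libraries. In the Zbp1 cohort, 5xFAD library 2 held 54.3 CPM of Prox1, a dentate granule cell gene, against 114 to 179 CPM in the other 23. Results that move without these libraries are given with both values.

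Potassium channels let potassium leave the cell and so set the resting potential and end each action potential. The voltage-gated (Kv) pore subunits open on depolarisation, and they are grouped by where and how fast they act: axonal Kcna channels, somatic and dendritic Kcnb and Kcnd channels, fast Kcnc channels, the M-current channels Kcnq, and the Kcnh channels. Calcium- and sodium-activated channels follow firing, inward rectifiers hold the resting potential or answer G proteins, and the Kcnk channels carry leak currents. In glia, some of these channels clear potassium or allow the potassium efflux that precedes inflammasome activation. By these classes the 77 genes were 26 Kv pore subunits, 11 Kv auxiliary subunits, 9 electrically silent Kv subunits, 10 calcium- or sodium-activated channel genes with their auxiliary subunits, 12 inward rectifiers and 9 leak channels.

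In 5xFAD against WT of the Ripk1 cohort, 24 of the 77 genes fell and 3 rose at an adjusted p under 0.05 (edgeR quasi-likelihood test, Benjamini-Hochberg adjustment over 21376 genes). Over all genes tested, 16.1% were called, 8.02% lower and 8.11% higher. The 24 genes were lower by 0.27 to 0.91 on the log2 scale. The median log2 fold change of the 77 genes was -0.27, against 0.018 over all genes, and 60 of the 77 lay below 0, against 47.8% of all genes. Summed over the 77 genes, the level was 5194 ± 156 CPM in 5xFAD and 6501 ± 168 CPM in WT (SD, n = 3 each). In bulk tissue, fewer cells of a type and less RNA per cell cannot be told apart.

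The lowered genes lay mostly among the Kv pore subunits: 13 of 26 fell, none rose, and 24 of 26 had a log2 fold change below 0, with a class median of -0.44. Of the other classes, 3 of 10 calcium- or sodium-activated channel genes fell, 3 of 12 inward rectifiers fell and 1 rose, 3 of 11 auxiliary subunits fell and 1 rose, 1 of 9 leak channels fell and 1 rose, and 1 of 9 silent subunits fell. The summed level of the Kv pore subunits was 2254, 2373 and 2491 CPM in the 5xFAD libraries, against 3155, 3201 and 3291 CPM in the WT libraries, so the groups did not overlap. Groups did not overlap for 35 lower and 4 higher genes, where 17.1% of all genes were lower without overlap and 17.7% were higher. Among Kv pore subunits this was so for 17, each of them lower.

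**Figure D1:**
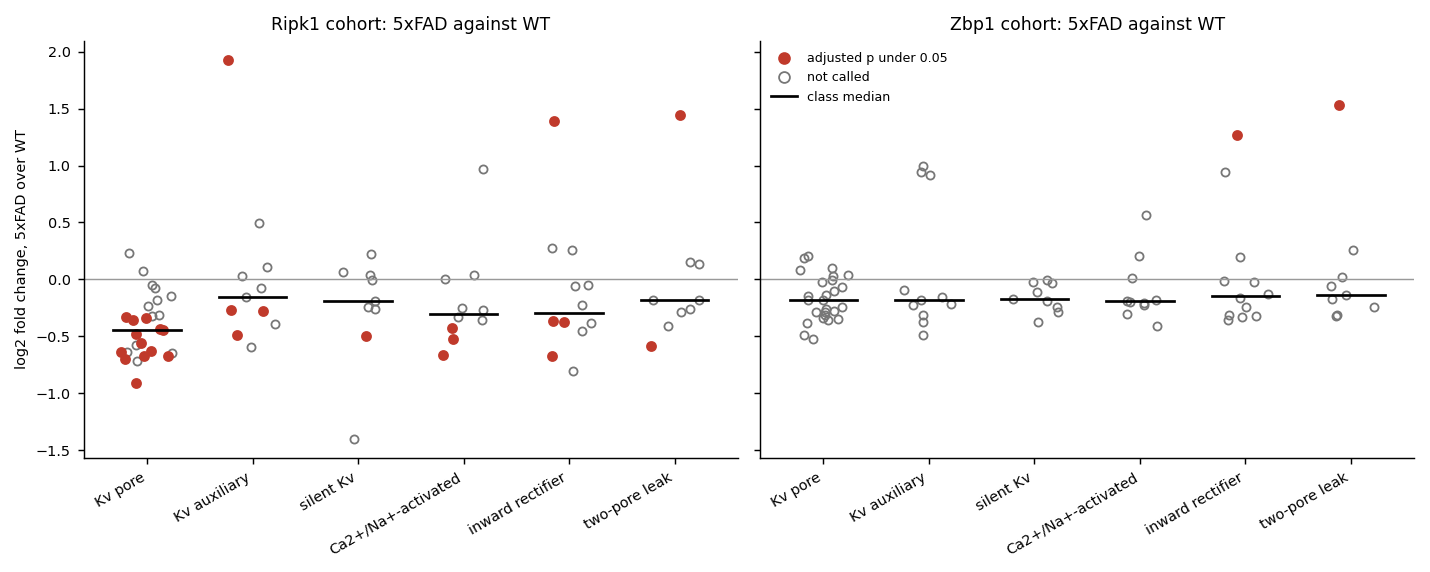
Log2 fold change of 5xFAD over WT (vertical axis) for each of the 77 genes, by channel class (horizontal axis), in the Ripk1 cohort (left) and the Zbp1 cohort (right). Filled red points passed an adjusted p of 0.05, open points did not, and bars are class medians. On the left, 13 Kv pore subunits are filled and all lie below 0, and on the right the 2 filled points are Kcnk6 and Kcnj2, both above 0.

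Among axonal channels, Kcna1, which limits repetitive firing and transmitter release, had 45.0, 51.8 and 62.0 CPM in the 5xFAD libraries of the Ripk1 cohort, against 99.5, 108 and 91.6 CPM in WT. All 3 5xFAD libraries lay below all 3 WT libraries. The log2 fold change of Kcna1 was -0.91 ± 0.17 (SE), with an adjusted p of 0.00287 (edgeR). Kcna2, which forms axonal channels together with Kcna1, had 223, 222 and 235 CPM in 5xFAD and 356, 326 and 317 CPM in WT (log2 fold change -0.56 ± 0.10, adjusted p = 0.00256 by edgeR). Kcna4, an axonal A-type channel, was lower by less, at -0.33 ± 0.11, with an adjusted p of 0.0479 that was lost without any of 5 of the 6 libraries compared (all but 5xFAD library 1). Kcna6 was not called (-0.08 ± 0.11), nor was Kcna3, an axonal channel that activated microglia also carry (-0.64 ± 0.45).

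Among somatic and dendritic channels, Kcnb2, a slow delayed rectifier, had 21.2, 23.4 and 24.9 CPM in 5xFAD libraries, against 38.6, 38.1 and 36.2 CPM in WT. The groups did not overlap, and the log2 fold change of Kcnb2 was -0.70 ± 0.14, with an adjusted p of 0.00427 (edgeR). Kcnd2, the pore of the dendritic A-type current, had 115, 115 and 135 CPM in 5xFAD, against 158, 163 and 172 CPM in WT (-0.44 ± 0.087). The other Kcnd genes, added after their values were seen, were not called, with Kcnd1 at 0.23 ± 0.13 and Kcnd3 at -0.32 ± 0.11.

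Of the M-current genes, Kcnq3 had 201, 190 and 221 CPM in 5xFAD and 356, 304 and 319 CPM in WT, a log2 fold change of -0.68 ± 0.094 with an adjusted p of 0.000375 (edgeR). Kcnq5 was lower by 0.36 ± 0.095 on the log2 scale. The Kcnq5 call was lost without either of 5xFAD libraries 1 and 2 or either of WT libraries 2 and 3.

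Kcnc1 and Kcnc2, fast delayed rectifiers of fast-spiking interneurons, fell by 0.48 ± 0.10 and 0.64 ± 0.12 on the log2 scale. Kcnc4, of the same family, was not called (-0.24 ± 0.16). Interneuron markers moved in the same direction: 3 of 8 were called lower, among them Gad1 and Gad2, 8 of 8 lay below 0, and their summed level was 723 to 944 CPM in 5xFAD, against 1013 to 1398 CPM in WT. Their part in the Kcnc values was not tested. Of the Kcnh genes, Kcnh1 and Kcnh7 were lower by 0.45 ± 0.12 and 0.63 ± 0.15, and Kcnh3, a forebrain channel, was not called (-0.047 ± 0.099). The Kcnh7 call was lost without 5xFAD library 2, and the Kcnh1 call without 5xFAD library 2, 5xFAD library 3 or WT library 2.

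**Figure D2:**
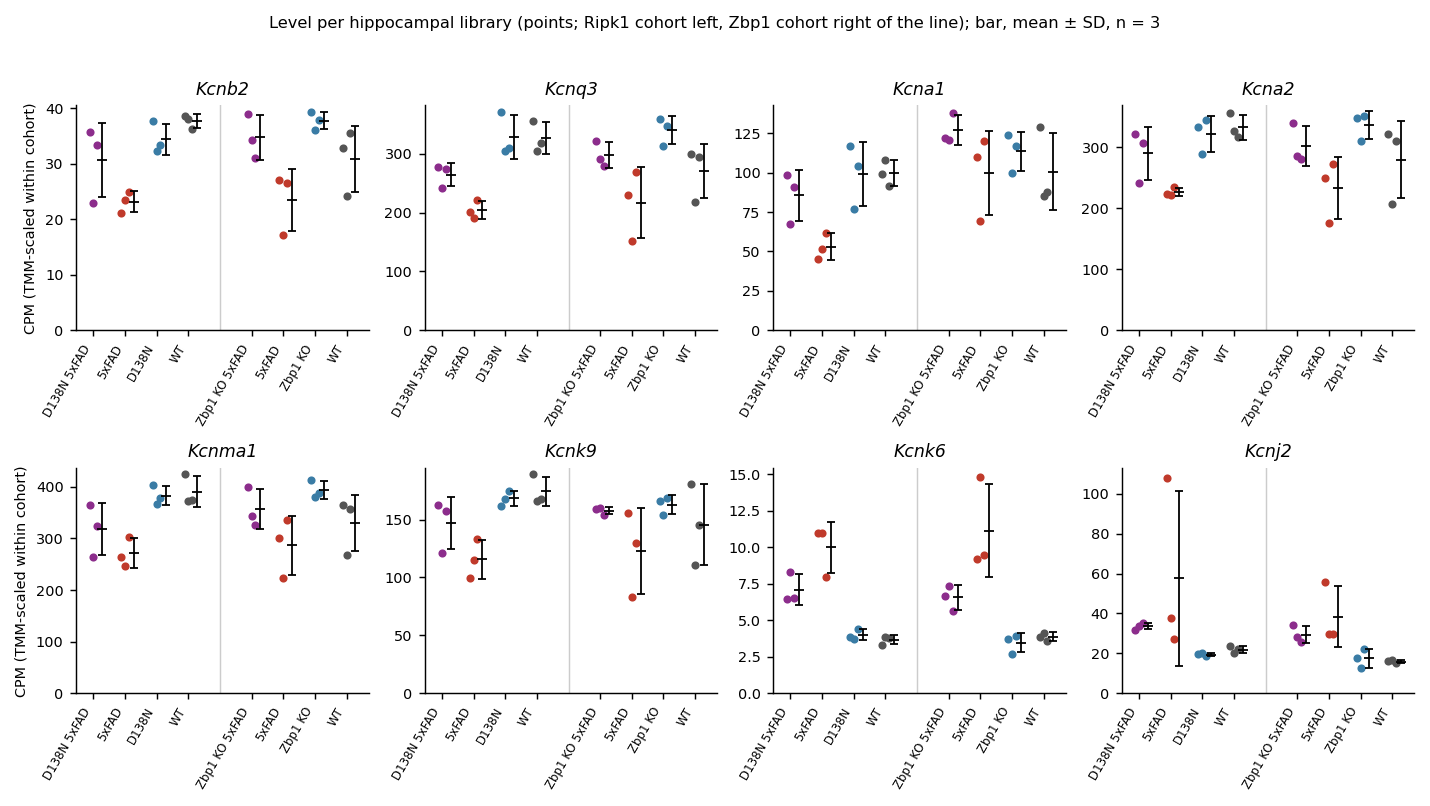
CPM (vertical axes, from 0) of 8 genes in each hippocampal library (points) with the mean and SD of 3 libraries (bars), by genotype (horizontal axes). In the Ripk1 cohort, left of each line, the 5xFAD libraries of Kcnb2, Kcnq3, Kcna1, Kcna2, Kcnma1 and Kcnk9 all lie below the WT libraries, and those of Kcnk6 and Kcnj2 above them. In the Zbp1 cohort the 5xFAD and WT libraries overlap for the first 6.

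Of the 10 calcium- or sodium-activated channel genes, 3 were called lower. Kcnma1, the large-conductance calcium-activated channel, had 265, 247 and 303 CPM in 5xFAD libraries, against 426, 373 and 374 CPM in WT libraries, without overlap. Its log2 fold change was -0.53 ± 0.11, with an adjusted p of 0.00612 (edgeR). Kcnt1, a sodium-activated channel, was lower by 0.67 ± 0.15, and Kcnn2, a small-conductance channel of the afterhyperpolarisation, by 0.43 ± 0.099. Kcnn2 lost its call without 5xFAD library 2 (adjusted p = 0.0545). Kcnn3 was not called (-0.34 ± 0.15), nor were the auxiliary subunits Kcnmb4 (-0.25 ± 0.27) and Kcnmb1 (0.97 ± 0.55). Kcnmb4 had only 1.36 to 3.41 CPM over the 24 libraries, and 2 noncoding transcripts named for overlap with it are annotated. Whether counting used strand is not given, so reads of such pairs may not be told apart.

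The G-protein-gated inward rectifiers, which carry inhibitory responses to GABA-B and other receptors, supplied all 3 lowered inward rectifiers. Kcnj6 had 28.8, 33.1 and 31.2 CPM in 5xFAD libraries and 53.0, 50.6 and 45.3 CPM in WT (log2 fold change -0.68 ± 0.13, adjusted p = 0.00329 by edgeR). Its partners Kcnj3 and Kcnj9 were lower by 0.37 ± 0.083 and 0.38 ± 0.12. The Kcnj3 call was lost without 5xFAD library 2, and the Kcnj9 call without any of 5 libraries (all but WT library 2). Kcnk9, an acid-sensitive leak channel of neurons, had 99.3, 115 and 133 CPM in 5xFAD, against 189, 166 and 168 CPM in WT (-0.59 ± 0.12). Other leak channels did not pass: Kcnk2, sensitive to stretch and lipids, stood at -0.18 ± 0.11, Kcnk3 at -0.29 ± 0.14, Kcnk10 at -0.26 ± 0.15 and Kcnk1, also found in astrocytes, at 0.14 ± 0.10.

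Of the auxiliary subunits, the cytoplasmic beta subunits Kcnab1 and Kcnab3 were lower by 0.27 ± 0.065 and 0.49 ± 0.14, while the most abundant in reads, Kcnab2, was not called (-0.16 ± 0.11). Of the Kcnip subunits, which escort Kcnd channels to the membrane, Kcnip4 was lower by 0.27 ± 0.078. Kcnip1 (-0.39 ± 0.16), Kcnip2 (0.03 ± 0.11) and Kcnip3 (0.11 ± 0.11) were not called. The silent subunit Kcnf1, which alters Kcnb channels, was lower by 0.50 ± 0.15, and Kcns3 (-0.27 ± 0.12) and Kcnv1 (-0.19 ± 0.086) did not pass. The calls of Kcnab1, Kcnab3, Kcnip4 and Kcnf1 were each lost without at least 3 of the 6 libraries, taken one at a time.

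When each of the 6 libraries was left out in turn, 12 of the 24 lowered genes kept their call every time, among them Kcna1, Kcna2, Kcnb2, Kcnc1, Kcnc2, Kcnd2, Kcnj6, Kcnk9, Kcnma1, Kcnq3 and Kcnt1. The number of potassium channel genes called then ran from 15, without 5xFAD library 2, to 24, against 27 with all libraries. Without 5xFAD library 1, the library high in Fos, it was 22. Over all genes, 7.98% to 14.9% were called in these fits, 11.4% without 5xFAD library 1, against 16.1% with all libraries. The authors' deposited table for this comparison lists 76 of the 77 genes, with 27 lower and 2 higher at their adjusted p under 0.05. How many of all genes passed in that table was not counted, so these numbers have no background share.

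Other ion channel genes moved with them. Of 20 tested genes for Kv partner proteins and related pores, 11 fell and none rose, with a median log2 fold change of -0.34. They include Dpp6 and Dpp10, which pair with Kcnd channels, Cntnap2, Adam22 and Dlg2, which anchor axonal Kcna channels, Ank3, which anchors Kcnq channels, and the HCN pore Hcn4. Of 23 voltage-gated sodium and calcium channel genes, 15 fell and none rose, with a median of -0.36. Among them Scn2a was lower by 0.74 ± 0.13 and Scn4b by 0.82 ± 0.11. Markers found in all neurons moved less: of 14, 1 was called higher (Thy1) and 2 lower (Syt1 and Map2), with a median of -0.079, and Rbfox3 stood at 225, 241 and 230 CPM in 5xFAD, against 244, 231 and 272 CPM in WT. Slc17a6, a marker of subiculum, had 5.25, 8.14 and 9.54 CPM in 5xFAD, against 22.6, 39.3 and 26.3 CPM in WT, and 3 of 7 markers of subiculum and neocortex were called lower. Microglial markers were higher, 14 of 14, at a summed 1523 to 1630 CPM in 5xFAD, against 318 to 422 CPM in WT. The part of these cell type markers in the channel values was not tested.

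Kcnk6 was the potassium channel gene raised by 5xFAD in both cohorts with the smallest adjusted p. It encodes a leak channel through which, in macrophages, extracellular ATP causes potassium efflux. In the Ripk1 cohort it had 11, 11 and 7.95 CPM in 5xFAD, against 3.33, 3.86 and 3.8 CPM in WT (log2 fold change 1.44 ± 0.17, adjusted p = 0.000103 by edgeR). In the Zbp1 cohort it had 9.19, 14.8 and 9.43 CPM in 5xFAD, against 3.86, 4.15 and 3.54 CPM in WT (1.53 ± 0.24, adjusted p = 0.00152 by edgeR). No 5xFAD library overlapped a WT library in either cohort, and both calls held whichever of the 6 libraries was left out. It was also higher with the transgenes on the D138N background, with 6.46, 8.32 and 6.5 CPM in D138N 5xFAD, against 3.87, 3.74 and 4.41 CPM in D138N (0.82 ± 0.17, adjusted p = 0.0154 by edgeR). That call was lost without D138N library 1, D138N library 2 or D138N 5xFAD library 2. On the Zbp1-/- background it had 6.66, 7.37 and 5.66 CPM with 5xFAD, against 3.71, 2.70 and 3.92 CPM without. The groups did not overlap, but the adjusted p was 0.0919 (edgeR).

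Kcnj2, a strong inward rectifier found in neurons, endothelium and microglia, also rose in 5xFAD of both cohorts. It had 108, 37.6 and 27.2 CPM in 5xFAD of the Ripk1 cohort, against 23.6, 20 and 22 CPM in WT (log2 fold change 1.39 ± 0.35, adjusted p = 0.0176 by edgeR). The value of 108 CPM belongs to the library high in Fos. Without it the log2 fold change was 0.57 ± 0.13 and the adjusted p 0.0150 (edgeR). The call was lost without WT library 1 or WT library 2, and also when only the compared groups were fitted. In the Zbp1 cohort Kcnj2 had 55.9, 29.5 and 29.5 CPM in 5xFAD, against 16, 16.4 and 15 CPM in WT (1.27 ± 0.25, adjusted p = 0.00891 by edgeR), a call lost without WT library 3 (adjusted p = 0.0562). Kcne1l, an auxiliary subunit encoded on the X chromosome, behaved alike in the Ripk1 cohort, with 17.0, 5.72 and 4.43 CPM in 5xFAD, against 1.53, 2.65 and 2.81 CPM in WT. Its log2 fold change was 1.93 ± 0.44 with an adjusted p of 0.00996 (edgeR), and 1.12 ± 0.31 with an adjusted p of 0.0366 without the library high in Fos. The call was lost without WT library 1 (adjusted p = 0.0518). In the Zbp1 cohort it was not called (0.92 ± 0.34).

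The promoters of 55 of the 77 genes were found in RefSeq promoter windows of GRCm38.p6. The 250 bases before the annotated start are shown for Kcnj2 and Kcne1l, which rose in 5xFAD, and for Kcna2, which fell, so that the raised and lowered genes can be set side by side. Capitals mark letters that match the E-box CACGTG, or the core GAGGAA of PU.1 sites (a myeloid factor) on either strand, the only searched motifs present in the windows printed.
Kcnj2, chr11:111065914-111066163, plus strand: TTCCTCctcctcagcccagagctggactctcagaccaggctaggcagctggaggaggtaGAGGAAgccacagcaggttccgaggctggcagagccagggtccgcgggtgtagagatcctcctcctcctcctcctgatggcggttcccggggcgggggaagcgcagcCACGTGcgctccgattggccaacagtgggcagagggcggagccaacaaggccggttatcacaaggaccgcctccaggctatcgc
Kcne1l, chrX:142306199-142306448, minus strand: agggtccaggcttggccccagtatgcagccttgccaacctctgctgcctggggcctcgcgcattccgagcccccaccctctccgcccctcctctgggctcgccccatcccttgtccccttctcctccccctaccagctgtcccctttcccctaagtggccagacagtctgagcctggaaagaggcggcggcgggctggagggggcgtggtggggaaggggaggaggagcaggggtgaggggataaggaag
Kcna2, chr3:107101317-107101566, plus strand: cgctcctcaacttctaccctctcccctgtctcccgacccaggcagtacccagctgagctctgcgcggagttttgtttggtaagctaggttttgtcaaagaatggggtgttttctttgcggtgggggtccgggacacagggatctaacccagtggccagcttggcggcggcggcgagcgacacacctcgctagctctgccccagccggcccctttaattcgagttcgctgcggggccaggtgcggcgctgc
Searched on both strands, the E-box was in 6.33% of the 79 windows of potassium channel genes and in 6.02% of all 32851 windows, and the PU.1 core in 25.3% and 23.3%. The AP-1 motif, TGANTCA, was in 3.8% and 6.75%, and the cyclic AMP element, TGACGTCA, in 0% and 1.55%. A match of letters is no evidence of binding, and a window without one says nothing of the factor.

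In 5xFAD against WT of the Zbp1 cohort, Kcnk6 and Kcnj2 rose and no potassium channel gene fell by the edgeR test, where 3.13% of all genes were called, 3% higher and 0.127% lower. At an unadjusted p under 0.05 there were 22 of the 77 genes, 28.6%, against 12% of all genes. A DESeq2 Wald test called 3 of the 77 and 2.67% of the 36227 genes with a count, a wider set than the 21274 of edgeR. The median log2 fold change was -0.18, against -0.0044 over all genes, and 59 of 77 genes lay below 0, against 50.7% of all genes. Summed over the 77 genes, 5xFAD had 5534 ± 331 CPM and WT 6301 ± 378 CPM (SD, n = 3 each). Groups did not overlap for 11 lower genes, among them Kcna4, Kcnc4, Kcnd2, Kcnh3, Kcnj3, Kcnj9, Kcnab1, Kcnip4 and Kcnf1, and for 4 higher ones, where 5.40% of all genes were lower and 8.28% higher without overlap. Kcna4 was at 29.3, 25 and 21.3 CPM in 5xFAD and 40.3, 39.7 and 29.4 CPM in WT, with a log2 fold change of -0.53 ± 0.15 and an adjusted p of 0.0936 (edgeR). The authors' deposited table for this comparison has 2 of the genes lower, Kcna4 and Kcnip4, and 2 higher, Kcnj2 and Kcnk6, at their adjusted p under 0.05. The share of all genes passing in that table was not counted.

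Markers found in all neurons moved in the same direction in that cohort, with 13 of 14 below 0, a median of -0.22 and Snap25 called lower, and so did sodium and calcium channel genes, with 23 of 23 below 0, a median of -0.23 and 1 called lower. None of the 20 Kv partner genes was called there, and their median was -0.17. Slc17a6 had 10.9, 7.42 and 7.88 CPM in 5xFAD of that cohort, against 22.5, 20.1 and 27.3 CPM in WT. Summed over the 7 markers of subiculum and neocortex, 5xFAD ran from 198.9 to 233.6 CPM and WT from 233.8 to 284.2 CPM. The 8 interneuron markers summed to 861.5 to 988.8 CPM in 5xFAD, against 1040 to 1151 CPM in WT. Microglial markers were called higher in 13 of 14. The part of these markers in the channel values was not tested. For Kcnq3 the 5xFAD libraries had 230, 152 and 269 CPM and the WT libraries 299, 218 and 295 CPM, and for Kcnb2 they had 27, 17.1 and 26.5 CPM in 5xFAD and 32.9, 24.2 and 35.5 CPM in WT. Library 2 was the lowest of its group for both genes in both genotypes. The log2 fold changes were -0.32 ± 0.17 for Kcnq3 and -0.39 ± 0.18 for Kcnb2. Without 5xFAD library 2, the library low in Prox1, 2 potassium channel genes were called. Over all genes 4.96% were called then, against 3.13% with all libraries. The median log2 fold change over the 77 was -0.13 without that library. Kcna1 had 110, 69.6 and 120 CPM in 5xFAD, against 129, 85 and 88 CPM in WT (log2 fold change -0.0029 ± 0.19).

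The 24 genes lowered in the Ripk1 cohort were then followed in comparisons that use none of those 6 libraries. In 5xFAD against WT of the Zbp1 cohort, 24 of the 24 lay below 0, with a median log2 fold change of -0.27, against 35 of the other 53 potassium channel genes and a median of -0.10. In D138N 5xFAD against D138N, 23 of the 24 lay below 0, with a median of -0.24, against 38 of 53 and -0.13. In Zbp1-/- 5xFAD against Zbp1-/-, 20 of the 24 lay below 0, with a median of -0.15, against 35 of 53 and -0.089. Over all genes, 50.7%, 51% and 50.6% lay below 0 in these 3 comparisons. The other 53 include the 3 genes raised in the Ripk1 cohort and genes near the CPM threshold, such as Kcne4, Kcnmb1 and Kcnj14. Genes outside the 77 that fell in the Ripk1 cohort were not followed in this way. An unadjusted p under 0.05 with a log2 fold change below 0 was reached by 12, 13 and 6 of the 24 in these 3 comparisons. Over all genes, 892 of 21274, 1230 of 21376 and 489 of 21274 reached it in that direction. By edgeR's adjusted p none of the 24 was called in these comparisons. The difference in 5xFAD effect between the cohorts was itself tested over 22565 genes. By edgeR no potassium channel gene passed and 0% of all genes were called. At an unadjusted p under 0.05 there were 5, or 6.49%, against 9.14% of all genes. Without 5xFAD library 2 of the Zbp1 cohort, 1 of the 77 passed, Kcna1 at an adjusted p of 0.0293, and 2.53% of all genes did. With all libraries Kcna1 differed by -0.92 ± 0.27 on the log2 scale (adjusted p = 0.360 by edgeR).

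In D138N 5xFAD against 5xFAD, no potassium channel gene was called by edgeR, where 0.0234% of all genes were called higher and 0.342% lower. At an unadjusted p under 0.05 there were 17 of 77, 22.1%, against 12.3% of all genes. DESeq2 called 3 and 0.74% of the 37707 genes with a count, a wider set than the 21376 of edgeR. Without D138N 5xFAD library 2 edgeR called 8, and its calls over all genes went up to 673, against 78 with that library. The median log2 fold change was 0.14, against -0.0076 over all genes, and 19 of 77 genes lay below 0, against 51.4% of all genes. Kcna1 had the smallest p: 98.8, 67.3 and 90.8 CPM in D138N 5xFAD, against 45.0, 51.8 and 62.0 CPM in 5xFAD (log2 fold change 0.69 ± 0.17, adjusted p = 0.156 by edgeR). Its groups did not overlap, and neither did those of Kcnq3, with 277, 242 and 274 CPM in D138N 5xFAD and 201, 190 and 221 CPM in 5xFAD, or of Kcna2 and Kcnj6. In all, 13 genes were higher without overlap and 1, Kcna5, was lower, where 7.40% of all genes were higher and 7.73% lower. Without D138N 5xFAD library 2, the lowest of its group for these 4 genes, the adjusted p of Kcna1 was 0.0220 (edgeR) and that of Kcna2 0.0143. Slc17a6, 1 of 7 listed markers of subiculum and neocortex, was at 8.62 CPM in that library. The other D138N 5xFAD libraries had 27.5 and 21.3 CPM of it. Summed over the 7 markers, the D138N 5xFAD libraries ran from 178.4 to 265.4 CPM. The part of these markers in the values was not tested. In the authors' deposited table, which gives 5xFAD over D138N 5xFAD, Kcna1 alone of these genes passed, with a log2 fold change of -0.70. The share of all genes passing there was not counted.

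Without the transgenes, D138N was compared with WT. None was called by edgeR in D138N against WT, as was 0% of all genes, and 1 of 77, Kcnh3, had an unadjusted p under 0.05 (0.21 ± 0.099), against 2.4% of all genes. In 2 lower genes, Kcnmb4 and Kcnj2, and in no higher one, the groups did not overlap, where 4.12% of all genes were lower and 3.58% higher without overlap. The summed level was 6541 ± 446 CPM in D138N and 6501 ± 168 CPM in WT (SD, n = 3 each). With the transgenes on that background, D138N 5xFAD had 5780 ± 156 CPM. In D138N 5xFAD against D138N, Kcnk6 and Kcnk13 rose and Kcnv1 and Kcnh3 fell, where 3.37% of all genes were called, 3.12% higher and 0.257% lower. Without overlap between groups, 19 genes were lower and 7 higher, where 7.87% of all genes were lower and 11.3% higher without overlap. The median over the 77 genes was -0.17, against -0.0056 over all genes, and 61 lay below 0, against 51% of all genes. Without D138N 5xFAD library 2 none of the 77 was called, where 2.42% of all genes were. Without D138N library 1, D138N library 3 or D138N 5xFAD library 3 only 1 was, where 2.37%, 1.98% and 2.23% of all genes were. DESeq2 called 10 and 3.17% of the 37707 genes with a count. Kcnv1, a silent subunit, had 41.1, 38.5 and 37.6 CPM in D138N 5xFAD, against 53.7, 48.3 and 52.8 CPM in D138N (-0.40 ± 0.086, adjusted p = 0.0174 by edgeR). Kcnh3 had 93.8, 101 and 90 CPM in D138N 5xFAD, against 122, 118 and 135 CPM in D138N (-0.40 ± 0.099). The Kcnh3 call was lost whichever of the 6 libraries was left out (adjusted p from 0.052 to 0.218), and the Kcnv1 call without D138N library 1 or 3 or D138N 5xFAD library 2 or 3.

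Kcnk13, a leak channel of microglia that ATP receptors modulate, was called on the D138N background. It had 8.23, 10.9 and 11.5 CPM in D138N 5xFAD, against 7.02, 4.86 and 6.03 CPM in D138N (log2 fold change 0.77 ± 0.19, adjusted p = 0.0419 by edgeR). The call was lost without any of 4 of these 6 libraries, all but D138N library 1 and D138N 5xFAD library 1. In Zbp1-/- 5xFAD against 5xFAD it had 7.97, 7.44 and 7.05 CPM in Zbp1-/- 5xFAD, against 11.4, 11.1 and 9.86 CPM in 5xFAD, without overlap but not called (-0.53 ± 0.16, adjusted p = 0.446 by edgeR). Kcnk6 was not called against 5xFAD in either mutant 5xFAD group, with log2 fold changes of -0.49 ± 0.17 in D138N 5xFAD and -0.76 ± 0.23 in Zbp1-/- 5xFAD (adjusted p of 0.302 and 0.437 by edgeR). The summed microglial markers were 1172 to 1489 CPM in D138N 5xFAD, 844 to 1018 CPM in Zbp1-/- 5xFAD, and 1523 to 1630 and 1238 to 2223 CPM in the 5xFAD groups of the Ripk1 and Zbp1 cohorts. Their part in the Kcnk6 and Kcnk13 values was not tested.

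In the interaction of 5xFAD with D138N, which asks whether the 5xFAD effect differs between backgrounds, no potassium channel gene was called by edgeR, and 0.0281% of all genes were. At an unadjusted p under 0.05 there were 14, or 18.2%, against 7.47% of all genes, led by Kcnj6 (0.53 ± 0.18) and Kcna1 (0.70 ± 0.23). A smaller count of calls on the D138N background is therefore not shown to be a different effect.

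In Zbp1-/- 5xFAD against 5xFAD no potassium channel gene was called by edgeR, as was 0% of all genes. An unadjusted p under 0.05 was reached by 14 of 77, 18.2%, against 8.81% of all genes. DESeq2 called none of the 77 and 0.422% of the 36227 genes with a count. The median log2 fold change over the 77 was 0.071, against -0.011 over all genes. For the 26 Kv pore subunits it was 0.22, with 4 of them below 0, against 51.6% of all genes. Groups did not overlap for 14 higher genes, among them Kcna1, Kcna2, Kcna4, Kcnb2, Kcnd2 and Kcnq3, and for 2 lower ones, Kcnk6 and Kcnk13, where 6.40% of all genes were higher and 7.89% lower without overlap. Kcnj3 had 196, 179 and 210 CPM in Zbp1-/- 5xFAD, against 165, 137 and 162 CPM in 5xFAD, among the 5 smallest p (0.33 ± 0.10). The summed level was 6208 ± 115 CPM in Zbp1-/- 5xFAD and 5534 ± 331 CPM in 5xFAD (SD, n = 3 each).

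Without the transgenes, Zbp1-/- was compared with WT. The summed level was 6690 ± 147 CPM in Zbp1-/- and 6301 ± 378 CPM in WT (SD, n = 3 each), and the Kv pore sum ran from 3204 to 3474 CPM in Zbp1-/- and from 2646 to 3358 CPM in WT. Groups did not overlap for 11 higher genes and 1 lower gene, where 6.21% of all genes were higher and 5.57% lower without overlap. No gene was called by edgeR, as was 0% of all genes, and 3 of 77, 3.9%, had an unadjusted p under 0.05, against 3.66% of all genes. Kcnrg, which in human cells limits Kv channel assembly, had 2.52, 1.89 and 2.15 CPM in Zbp1-/-, against 0.844, 0.734 and 1.64 CPM in WT (0.99 ± 0.36, adjusted p = 0.942 by edgeR). In Zbp1-/- 5xFAD against Zbp1-/-, none was called by edgeR with all libraries, where 1.23% of all genes were called, 1.18% higher and 0.0423% lower. Without overlap between groups, 17 genes were lower and 4 higher, where 10.6% of all genes were lower and 10.8% higher without overlap. An unadjusted p under 0.05 was reached by 13, or 16.9%, against 7.59% of all genes. DESeq2 called 2 and 1.35% of the 36227 genes with a count. A fit of these 6 libraries alone called 7 and 4.41% of the 19868 genes it tested. The interaction of 5xFAD with Zbp1-/- called none and 0% of all genes, with 1 potassium channel gene, Kcna4, at an unadjusted p under 0.05, against 2.26% of all genes.

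**Figure D3:**
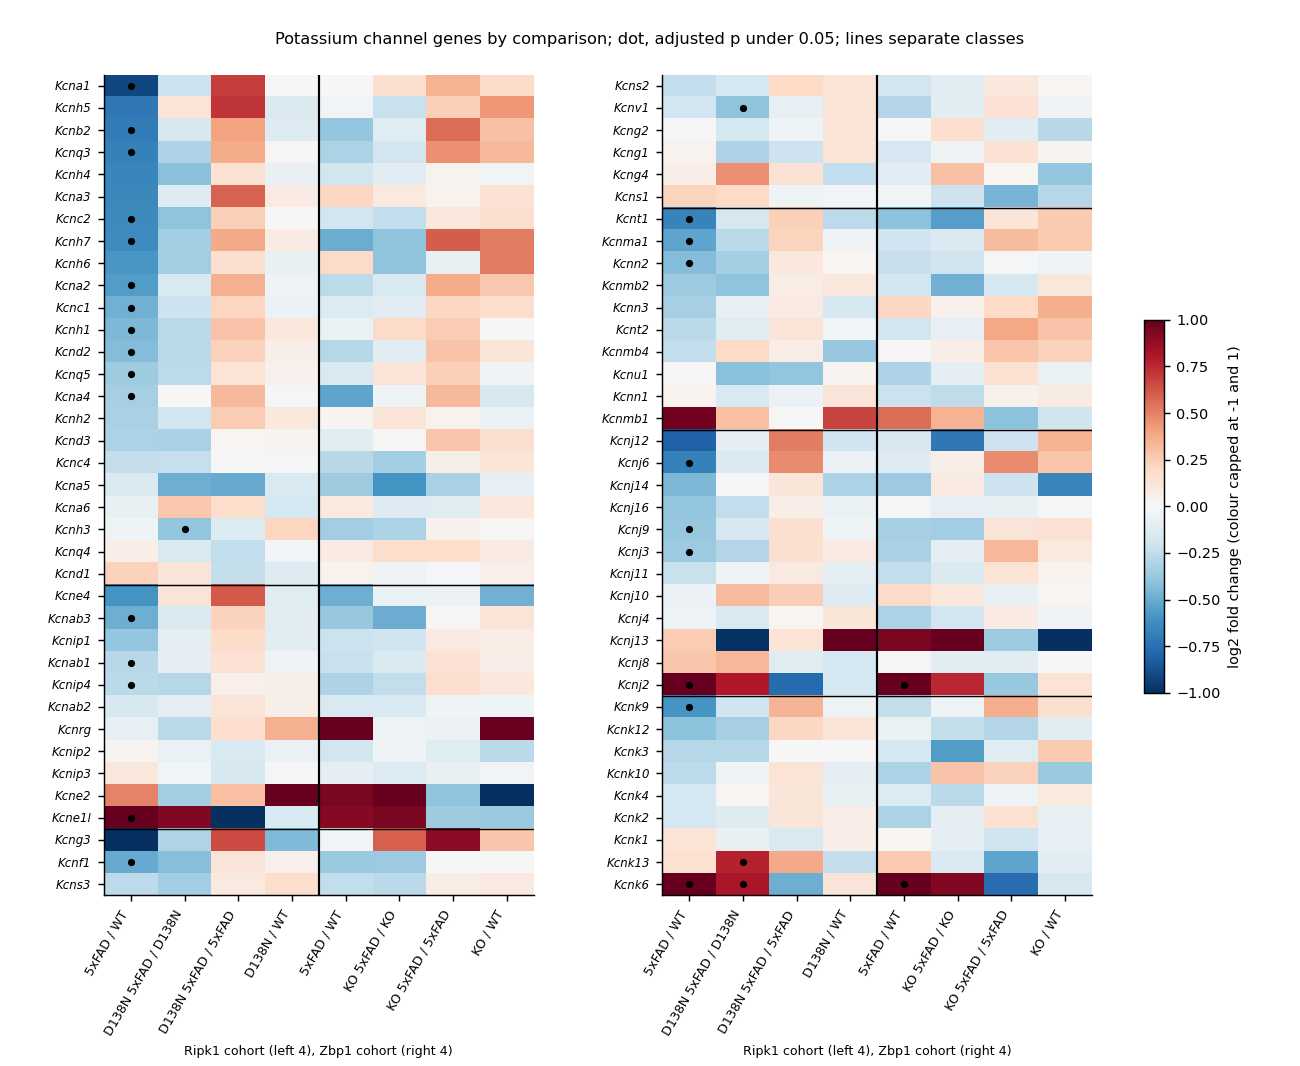
Log2 fold change (colour, capped at -1 and 1) of 74 of the 77 genes (rows, by class and by their value in the first column) in 8 comparisons (columns), with a dot where the adjusted p was under 0.05. The first column, 5xFAD over WT of the Ripk1 cohort, holds 25 dots, 22 of them on blue cells, and comparisons that share libraries are not independent of each other.

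Kcnj10, Kcnj16, Kcnj8, Kcnj13 and Kcne2, channel genes of astrocytes, mural cells or choroid plexus, were not called in 5xFAD against WT of either cohort. Kcnma1, Kcnj2 and Kcnk6, from the same list of glial, vascular and choroid plexus channels, were called as given above. Kcnj10, the astrocytic channel that buffers potassium, had 188, 184 and 174 CPM in 5xFAD of the Ripk1 cohort, against 218, 162 and 188 CPM in WT (-0.058 ± 0.096), and in the Zbp1 cohort its log2 fold change was 0.19 ± 0.13. On the D138N background it had 209, 206 and 232 CPM in D138N 5xFAD, against 179, 159 and 182 CPM in D138N, without overlap but not called (0.31 ± 0.096, adjusted p = 0.111 by edgeR). Its partner subunit Kcnj16 was not called in either cohort (-0.39 ± 0.19 and -0.02 ± 0.14), nor was Kcnj8, the mural cell channel (0.28 ± 0.17 and -0.02 ± 0.29).

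Kcnj13 and Kcne2, channel subunits of choroid plexus epithelium, varied most between libraries of a genotype. Kcne2 ran from 0.359 to 37.9 CPM and Kcnj13 from 0.125 to 20.5 CPM over the 24 libraries. In 5xFAD of the Zbp1 cohort Kcne2 had 0.359, 21.4 and 37.9 CPM, beside 16.7, 4420 and 3570 CPM of Ttr, a choroid plexus marker, and in WT it had 1.69, 26.9 and 1.10 CPM beside 119, 4440 and 74.2 CPM of Ttr. In each cohort the ranges of the 4 genotypes overlapped. The log2 fold changes of 5xFAD over WT had errors above 1 for both genes in both cohorts (Kcne2 0.50 ± 1.27 and 0.94 ± 1.19, Kcnj13 0.26 ± 1.28 and 0.94 ± 1.26), so no difference was detectable.

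**Figure D4:**
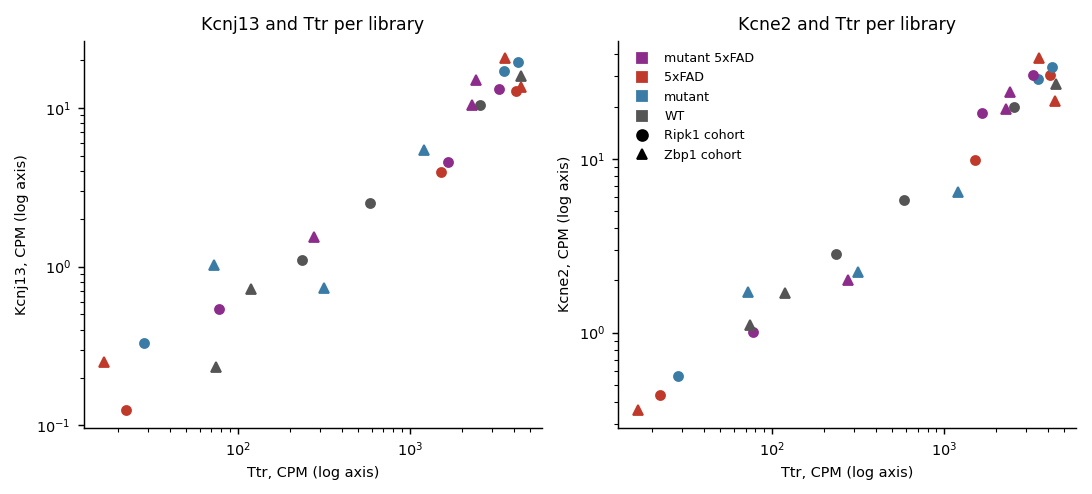
CPM of Kcnj13 (left) and Kcne2 (right) against CPM of the choroid plexus gene Ttr in each of the 24 libraries, on log axes, with colours for genotype and shapes for cohort. Libraries low in Ttr, down to 16.7 CPM, are low in both channel genes, and the 5xFAD libraries lie at both ends.

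In the 4 RIP libraries, potassium channel counts in the ZBP1 pulldown were set beside those in the input, with 1 library per condition and therefore no test. Input counts spanned a narrow range, and Kcnk16, at 0.008 CPM in hippocampus, had 36 counts in the 5xFAD input, so what these counts measure is uncertain and the ratios are given as values only. The pulldowns held 6808879 counts in 5xFAD and 5742746 in WT, and the inputs held 9444018 in 5xFAD and 8911548 in WT. With at least 50 counts over pulldown and input, 52 of the 77 genes could be read in 5xFAD and 49 in WT. The median ratio of pulldown to input CPM was 0.739 in 5xFAD, against 0.782 over all rows, and 0.877 in WT, against 0.893 over all rows. None reached a ratio of 2 in either genotype, where 0.228% of all rows did in 5xFAD and 0.426% in WT. At or below 0.5 were 3 genes in 5xFAD and 2 in WT, where 7.63% and 2.09% of all rows were. The highest ratios were 1.39 for Kcnip4 in 5xFAD, from 26 counts in each library, and 1.55 for Kcns2 in WT, from 28 counts in each, so single ratios rest on few counts.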

How the data were processed

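Whole-number hippocampal counts, 1 row for each Ensembl ID, were deposited by the authors in 1 table per cohort, and 1 further table of counts by symbol covers the RIP libraries, per the file headers. The authors' deposited tables of comparisons give log2 fold changes and p-values. Per the submitters' processing notes the tools include HISAT2, DESeq2 1.42.1 and edgeR 4.0.16, with the builds mm10 (GRCm38) and mm39 (GRCm39). Which step used which, and whether counting used strand, is not stated, and the only coordinates printed are those of RefSeq promoters.

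Of 55487 gene IDs, 55141 matched a symbol. Groups were taken from the labels. The 12 libraries of a cohort were fitted together in edgeR 4.0.16 under R 4.3.3 (TMM, filterByExpr, quasi-likelihood test, 1 mean per genotype). The standard error is the absolute log2 fold change divided by the square root of F. Printed CPM use TMM-scaled library sizes, and membership used plain totals. CPM are not divided by transcript length, so different genes were ranked only by reads and not by transcript number. Within each group, no library was a duplicate of another (chi-square over degrees of freedom from 7.28 to 78.1 between replicates). Libraries of different groups were not compared in this way. Data were simulated for 5xFAD against WT of the Ripk1 cohort (20909 genes). Of these genes, 67, 67 and 66 were changed by 0.5, 1 and 2 on the log2 scale. The fit recovered 32.8%, 77.6% and 93.9% of these changes, with 9 false calls among 145. In the data, 3449 of 21376 genes were called. The adjustment depends on the share of changed genes, so these rates may not hold for the data. DESeq2 1.42.0, other size factors, no filter, a replicate block and leaving out each library were tried.

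The genes and lists were chosen with earlier results of these data known. A gene is named with values when called in any comparison, among the 10 smallest p of 5xFAD against WT or the 5 smallest elsewhere, a known glial, vascular or choroid plexus channel, a listed auxiliary subunit, or nearest the CPM threshold. A few genes are counted but not reported here by name.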

Additional observations from a re-analysis of the deposited data

How the results depend on the processing

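Scaling by RLE size factors, a membership threshold of 5 CPM and the replicate block moved no count of calls in 5xFAD against WT of the Ripk1 cohort by over 1.5 times (28, 26 and 29 against 27), and leaving out each library gave 15 to 24. Over all genes these fits called 16.3%, 16.1% and 16.8%, and 7.98% to 14.9% with a library left out. Libraries with the same replicate number correlated between -0.218 and 0.402 in their deviations, so the number was not taken as a pairing. With the block, D138N 5xFAD against D138N had 6 calls (3.58% of all genes) and 5xFAD against WT of the Zbp1 cohort 3 (3.63%). Zbp1-/- 5xFAD against 5xFAD had 0 calls with the block, where 0.193% of all genes were called, against 0% without it. Elsewhere counts moved, and the cause was not tested. D138N 5xFAD against 5xFAD had 3 calls by DESeq2, 6 without the low-count filter and 0 to 8 with a library left out. Over all genes these fits called 0.74%, 1.03% and 0.0636% to 3.05%. D138N 5xFAD against D138N had 10, 9 and 0 to 5 in the same order, beside 3.17%, 2.73% and 1.98% to 3.36% of all genes. Without the filter there were 6 calls in 5xFAD against WT of the Zbp1 cohort, where 2.84% of all genes were called. With a library left out it had 2 to 3, beside 1.87% to 4.96% of all genes. Zbp1-/- 5xFAD against 5xFAD had 5 calls without the filter (1.37% of all genes) and Zbp1-/- against WT 3 (0.259%). Also without it, Zbp1-/- 5xFAD against Zbp1-/- had 5 (1.73%), the interaction with D138N 1 (0.385%) and the cohort difference 1 (0.476%). With a library left out the cohort difference had 0 to 1, beside 0% to 2.53% of all genes. Zbp1-/- 5xFAD against Zbp1-/- had 2 calls by DESeq2 (1.35% of all genes) and 7 when only the compared groups were fitted (4.41%). In the RIP data a fold of 1.5 in either direction gave 19 genes in 5xFAD, each of them lower in the pulldown (29.5% of all rows were), and 8 in WT, 7 lower (12.8% of all rows) and 1 higher (2.08%). TMM factors gave 1 in 5xFAD, lower (1.66% of all rows), and no potassium channel gene reached a minimum of 200 counts. Over all genes, calls in 5xFAD against WT of the Ripk1 cohort numbered 1757 without 5xFAD library 2 and 1823 without WT library 1, against 3449 with all libraries. Of named genes under the alternatives, 1194 values kept their direction and side of the threshold, 66 lost a call, 36 gained one and 22 changed sign. The sign changes are all in genes not called in 5xFAD against WT. With a library left out the log2 fold changes in the Ripk1 cohort ran from -1.37 to 1.63 for Kcnj13, -1 to 1.64 for Kcne2, -0.16 to 0.067 for Kcnj10, -0.0044 to 0.075 for Kcnip2 and -0.0069 to 0.18 for Kcnip3. In the Zbp1 cohort they ran from -0.21 to 0.15 for Kcnj8 (0.015 with the replicate block), -0.12 to 0.16 for Kcnj16, -0.031 to 0.46 for Kcna3, -0.41 to 0.011 for Kcnip1, -0.14 to 0.26 for Kcnk1 and -0.078 to 0.15 for Kcnmb4.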

Other observations

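In the RIP inputs, counts of potassium channel genes rose with hippocampal level over a much narrower range. The 77 genes had 9 to 122 counts in the 5xFAD input, with a median of 45, and the 17 coding Kcn genes below 1 CPM had 1 to 51, with a median of 28. The 20 potassium channel genes with the highest hippocampal CPM had a median of 76. Kcnk16, at 0.008 CPM in hippocampus, had 36 counts in the 5xFAD input, and Kcnab2, at 779 CPM, had 74.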
